A study of Mus musculus with 2 samples.

Results

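Processed pseudogenes of the mouse that appeared to be expressed in the embryonic neural tube were examined across 2 RNA libraries. A gene belonged to the set when the GENCODE M21 annotation typed it as a processed pseudogene or a transcribed processed pseudogene and its level reached 5 TPM (a length-corrected unit of transcript abundance) in both libraries. Of 10237 processed pseudogenes in the tables, which hold 55536 annotated genes in all, 229 met this rule, 199 of the plain type and 30 of the transcribed type. The rule used the TPM and the ratio of the posterior standard deviation (SD) of each count to the count, so both are described here without a test.

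The tissue was neural tube of strain B6NCrl at embryonic day 12.5, pooled from male and female embryos that the labels call healthy. The pool behind replicate 1 held 120 embryos, and that behind replicate 2 held 88. Each polyA library was primed with oligo-dT from 10 ng of total RNA, made with the SMARTer Ultra Low kit and Nextera tagmentation, and carried ERCC spike-ins, which are synthetic control RNAs. There was 1 group of whole-tissue pools and so no contrast between conditions, and a level per cell cannot be told apart from the number of cells of a type.

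Processed pseudogenes arise when a messenger RNA is copied back into DNA and inserted at another place in the genome. The copy lacks the parent gene's introns, usually lacks its promoter, and collects mutations with time, so that a young copy is nearly identical to the mature messenger RNA of its parent. Genes with abundant messenger RNA in the germ line, such as those of ribosomal proteins, have left many copies, and a short read from such a transcript can match the parent and its copies equally well. A few retrocopies are known to be transcribed, and some code for protein.

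Short windows of sequence give examples of copies in the set. Each window was 60 bases of the pseudogene aligned without a gap to the coding sequence of its best-matching protein-coding gene, called its parent here, on the strand of the transcript in build mm10 (GRCm38), from GENCODE M21 transcripts. Capitals mark bases that differ between the pseudogene and the parent. For each copy, the window with the most mismatches among those allowed was taken. Mismatches can therefore be denser here than over the whole copy. The first pair of pseudogenes stood among the highest members with a low posterior SD, and neither window differed from its parent: Gm10123 at chr9:96895658-96895717 copies Ppia, and Rps23-ps1 at chr3:37714740-37714799 copies Rps23.
Gm10123: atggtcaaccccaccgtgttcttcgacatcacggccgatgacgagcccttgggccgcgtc
Rps23-ps1: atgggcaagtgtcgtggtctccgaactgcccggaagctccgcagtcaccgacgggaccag
The next members had a high posterior SD: Gm6361 at chr15:31446758-31446817, identical here to Ube2v2, and Gm13392 at chr2:23908441-23908500, with 1 mismatch to Bri3.
Gm6361: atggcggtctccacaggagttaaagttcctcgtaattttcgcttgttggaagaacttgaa
Gm13392: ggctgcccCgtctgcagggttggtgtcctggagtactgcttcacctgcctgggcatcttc
Bri3: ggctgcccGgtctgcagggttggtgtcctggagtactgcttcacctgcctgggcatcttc
The pairs that follow were chosen after their values were seen, to show copies with few mismatches: H3f3c at chr2:119665902-119665961 and Oaz1-ps at chr17:17346016-17346075.
H3f3c: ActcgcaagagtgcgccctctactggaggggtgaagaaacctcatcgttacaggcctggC
H3f3a: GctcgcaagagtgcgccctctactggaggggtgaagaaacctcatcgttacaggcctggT
Oaz1-ps: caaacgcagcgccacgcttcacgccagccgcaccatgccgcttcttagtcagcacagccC
Oaz1: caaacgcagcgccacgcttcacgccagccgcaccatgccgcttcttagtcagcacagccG
The last pair, also chosen after values were seen, shows a more diverged copy in which every 100-base window was unique: Gm7805 at chr17:21964519-21964578, with 10 mismatches to Mrpl20.
Gm7805: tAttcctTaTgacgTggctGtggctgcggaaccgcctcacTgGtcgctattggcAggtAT
Mrpl20: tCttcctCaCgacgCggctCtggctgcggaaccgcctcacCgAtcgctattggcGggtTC

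The libraries held 33529531 and 35461403 estimated counts in replicates 1 and 2, which makes a single read over 1 kb of effective length equal to 0.0477 and 0.0462 TPM. Neuronal markers (Tubb3, Stmn2, Elavl4) lay between 302 and 982 TPM and progenitor markers (Sox2, Pax6, Nes, Fabp7) between 18.8 and 1464 TPM. Genes of other tissues were present too, with the erythroid globins Hbb-y and Hba-a2 at 4073 to 5425 TPM, the mesenchymal Col3a1 at 370 to 394 TPM, and the muscle genes Myog and Acta1 at 28.2 to 61.1 TPM. Their part in the pseudogene levels was not tested.

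Together the 229 members took 25417 TPM in replicate 1 and 24768 TPM in replicate 2, which was 2.54% and 2.48% of all TPM. Their share of the estimated gene counts was smaller, 0.605% and 0.582%, for transcripts with a median length of 468 bases. They held 92.9% and 93.4% of the TPM of all processed pseudogenes. The 20 highest members alone held 57.8% and 56.3% of the members' TPM, and the median member stood at 24.7 TPM in replicate 1 and 25.5 TPM in replicate 2.

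Log2 TPM of the libraries correlated at 0.985 (Pearson) and 0.961 (Spearman) over the 229 genes, which share length and sequence in both libraries. The members nearest the threshold were Gm12854 at 5.07 and 5.97 TPM, Gm5559 at 5.05 and 7.98 TPM, and Gm13378 at 9.30 and 5.01 TPM. Just outside it lay Tmed10-ps at 4.96 and 6.61 TPM, Gm6180 at 4.93 and 5.08 TPM, and Gm45380 at 5.97 and 4.93 TPM.

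**Figure D1:**
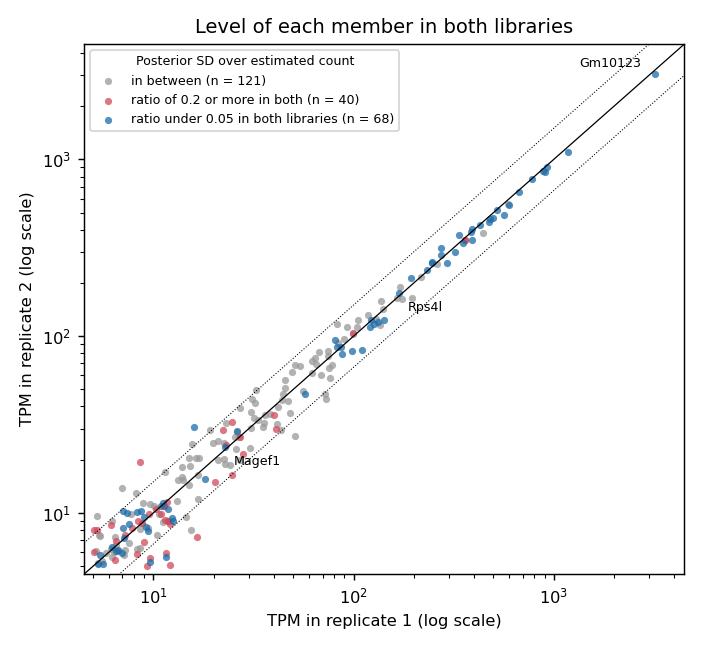
TPM of each of the 229 members in replicate 1 (x axis) and replicate 2 (y axis), both on log scales, coloured by the ratio of posterior SD to estimated count; the solid line marks equal levels and the dotted lines a 1.5-fold difference. Points lie along the line above 100 TPM and spread more widely near the threshold of 5 TPM.

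The highest members were copies of messenger RNAs of basic cell functions. Gm10123, a copy of the cyclophilin A gene Ppia, which encodes a protein-folding enzyme, stood at 3208 TPM in replicate 1 and 3034 TPM in replicate 2. Ppia itself was at 3547 and 3399 TPM, so the copy was given nearly as much signal as the gene. Gm10123 lies on chromosome 9 from 96895658 to 96896147, outside other coding or long noncoding genes. Its 490 bases matched Ppia at 100% identity over their whole length.

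Copies of ribosomal protein genes, which encode the protein parts of the cytosolic ribosome, were the largest family. Gm14303, a copy of Rps29, had 1181 and 1100 TPM beside 965 and 1000 TPM for Rps29. Rps23-ps1 had 907 and 850 TPM, well above the 132.1 and 132.2 TPM of Rps23. Gm12918 had 598 and 549 TPM beside 722 and 767 TPM for Rpl13, and here the parent was the higher in both libraries.

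Further ribosomal copies fell on either side of their parents. Rpl15-ps3 stood at 593 and 559 TPM with Rpl15 at 272 and 281 TPM, and Rpl28-ps1 at 500 and 467 TPM with Rpl28 at 243 and 254 TPM. Gm10443 was at 429 and 426 TPM with Rps28 at 526 and 535 TPM. Gm15500 was at 392 and 402 TPM with Rpl5 at 44.9 and 46.3 TPM, and Rpl31-ps8 at 389 and 348 TPM with Rpl31 at 301 and 324 TPM. Rpl37rt, of the transcribed type, stood at 386 and 390 TPM beside Rpl37 at 343 and 333 TPM. Only 50.4% of its longest transcript aligned to the parent. However, 97.95% and 97.13% of its TPM was given to a shorter transcript of 294 bases, which was not aligned separately.

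Chromatin and nuclear RNA proteins supplied other high members. Gm15387, a copy of Hmgb1, which encodes an abundant DNA-bending protein, had 879 and 861 TPM beside 1049 and 1035 TPM for the parent. Gm4739 had 482 and 459 TPM beside 320 and 306 TPM for Hmgb2, a relative of Hmgb1. H3f3c, a copy of the histone H3.3 gene H3f3a, had 476 and 441 TPM beside 2860 and 2765 TPM, and 43.3% of its 100-base windows were unique. Gm8203, a copy of the histone variant gene H2afz, had 444 and 382 TPM beside 1586 and 1430 TPM, and Gm8186, a copy of the spliceosomal protein gene Snrpg, had 562 and 485 TPM beside 415 and 381 TPM.

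Copies from other functions also stood among the top 20. Gm12481 had 924 and 910 TPM beside 368 and 387 TPM for Serf2. Gm10177, a copy of Sec61g, a subunit of the channel that moves new proteins into the endoplasmic reticulum, had 780 and 775 TPM beside 30.6 and 26.2 TPM for the gene. Gm12338, a copy of the respiratory chain subunit gene Cox7c, had 673 and 651 TPM beside 573 and 562 TPM. Gm1821 had 520 and 515 TPM, and its best coding match, Gm8797 at 98.3% identity, only 17.02 and 12.05 TPM.

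The member and its parent shared most of the sequence in nearly every case. A coding parent, set as the best alignment covering at least 50% of the pseudogene at 80% identity or more, was found for 222 of the 229 members (96.9%) and for 74.7% of all processed pseudogenes. Median identity to the parent was 99.7% in the members and 91.2% in all processed pseudogenes. Identity of 99% or more was reached by 162 members, 73.0% of those with a parent, and by 7.63% of all processed pseudogenes with one. The longest transcript of 67 members (29.3%) lay unbroken inside a coding transcript, beside 1.25% of all processed pseudogenes.

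Many members held an open reading frame about as long as the parent's. The longest run from ATG to stop, in any sense frame, was measured. It reached at least 95% of the parent's coding length in 96 members, 43.2% of those with a parent. The share was 8.47% of all processed pseudogenes with a parent. The frame's sequence was not compared with the parent's, and frames without a stop inside the annotated copy were missed. Gm10123, identical to Ppia over its length, was so listed at 30 codons beside 164. RefSeq (GRCm38.p6) listed 200 of the members by identifier or symbol, and typed 9 of them as protein coding, among them H3f3c, Rpl37rt, Ndufb4c, Ppp1ccb, Gm10509, Gm3325, Gm21297 and Gm36298. Of the 229 members, 211 had 1 exon.

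Within the set, levels of members and of their parents showed little relation. Over the 222 members with a parent, log2 mean TPM of copy and parent correlated at 0.10 (Pearson) and 0.0053 (Spearman). This describes genes that share sequence with their parents but need not share their length. The members were cut at 5 TPM and the parents were not, so the rule bears on this correlation. The median member stood at a log2 difference of -2.65 from its parent and held 13.8% of the summed TPM of the pair. In 37 members the pseudogene was above the parent in both libraries. Of these 37, 29 had a low posterior SD, 18 had their longest transcript inside a coding transcript and 19 had no unique 100-base window. Among the other 185 members with a parent, these counts were 33, 49 and 55.

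Of the 11 members whose parent is a mitochondrial energy gene, 4 were above the parent in both libraries and 7 below it in both. Of the 4 above, 3 chosen after their values were seen show the size of the difference. Gm10175, a copy of the ATP synthase subunit gene Atp5g2, had 320 and 301 TPM beside 49.1 and 48.2 TPM. Gm10108, a copy of the cytochrome c gene Cycs, had 274 and 315 TPM beside 54.6 and 58.5 TPM. Ndufb4c had 245 and 260 TPM beside 56.8 and 61.9 TPM for the complex I gene Ndufb4. The sequences of Gm10175 and Ndufb4c were identical to their parents over their full length, and Gm10108 was 99.4% identical. Below the parent in both libraries were, among others, Gm10221 at 217.42 and 216.85 TPM beside 478 and 475 TPM for Atp5l, and Gm10250 at 6.32 and 6.03 TPM beside 696 and 706 TPM for Atp5h, both copies of ATP synthase subunit genes.

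**Figure D2:**
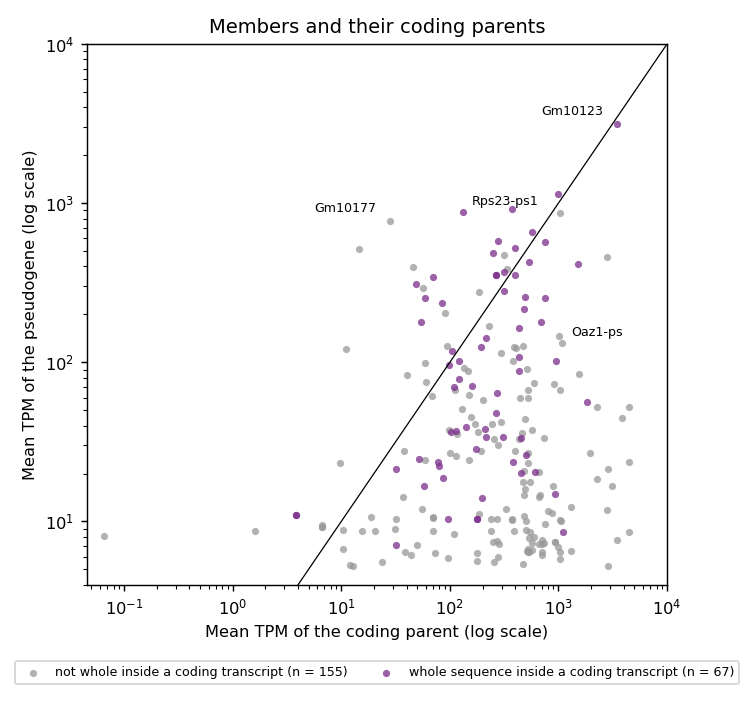
Mean TPM over 2 libraries of each of the 222 members with a coding parent (y axis) against the mean TPM of that parent (x axis). Both axes are on log scales, and the line marks equality. Purple marks members whose longest transcript lies whole inside a coding transcript. The 37 members above the line include Gm10177 and Rps23-ps1, and most members lie below it.

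Sequence that could be told apart from other genes was scarce. For each gene, the share of its 100-base windows that occur in no other annotated gene, on either strand, was counted; effective lengths in the tables were the length less 99 bases in 100% of 28610 genes with 1 transcript. Among the members, 75 of 229 (32.8%) had no unique window at all. The same held for 4.04% of all processed pseudogenes and for 1.13% of all genes at 5 TPM in both libraries. The median share of unique windows was 20.3% in the members and 100% in all processed pseudogenes. At the shorter window of 50 bases the medians were 10.2% and 96.7%.

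Members without any unique window held 67.0% of the members' TPM in replicate 1 and 66.1% in replicate 2. Among the 53 members at a mean of 100 TPM or more, 33 had none, and the median share was 0%. At the other end, 27 members had at least 90% unique windows, and they held 2.09% and 2.03% of the members' TPM. Across the 229 genes, log2 mean TPM and the share of unique windows correlated at -0.44 (Pearson) and -0.49 (Spearman).

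**Figure D3:**
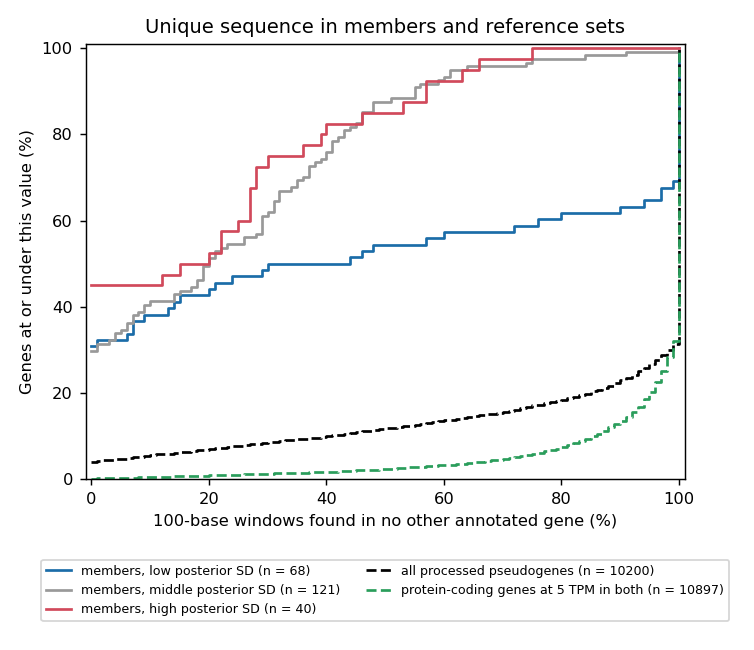
Cumulative share of genes (y axis, percent) at or under each share of unique 100-base windows (x axis, percent), for members by posterior SD (solid lines), all 10200 processed pseudogenes with such a window and 10897 protein-coding genes at 5 TPM in both libraries (dashed). The members' lines start at 30.9%, 29.8% and 45.0% for low, middle and high posterior SD, where the line of all processed pseudogenes starts at 4.04%.

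The posterior SD describes how firmly the quantifier divided shared reads between genes. A ratio of SD to estimated count under 0.05 in both libraries was found in 68 members (29.7%). A ratio of 0.2 or more in both was found in 40 members, and 121 members lay in between. The 68 with a low ratio held 69.8% and 69.2% of the members' TPM. Their median level was 104 and 91.3 TPM, beside 11.3 and 9.07 TPM for the 40 with a high ratio.

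A low ratio was not the same as unique sequence. Of the 68 members with a low ratio, 21 had no unique 100-base window, 22 had some and 25 had at least 90%. The 21 without a unique window held 49.2% and 48.3% of the members' TPM, and the 25 with at least 90% held 1.78% and 1.83%. Gm10123 shows the difference: its estimated counts of 26272 and 25704 had posterior SDs of 174 and 181 reads, yet none of its windows was unique. Seen from the other side, the 27 members with at least 90% unique windows comprised 25 with a low ratio, 2 in between and 0 with a high ratio. Members without any unique window were found in each class, 21 with a low ratio, 36 in between and 18 with a high ratio.

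All 16 members with a posterior SD of exactly 0 in both libraries had 100% unique windows. They were low, with mean levels between 5.22 and 23.3 TPM. Over all 229 members the ratio had a Pearson correlation of -0.29 with the share of unique windows and of -0.41 with log2 mean count.

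**Figure D4:**
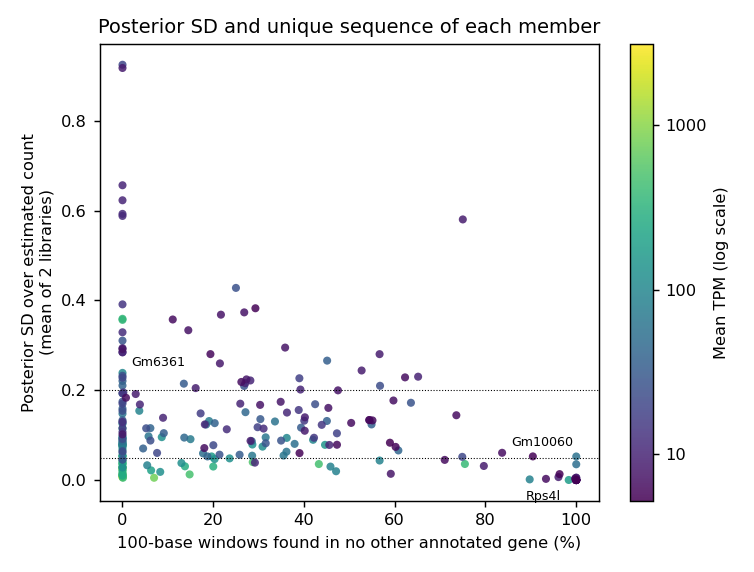
Ratio of posterior SD to estimated count, as the mean of 2 libraries (y axis), against the share of unique 100-base windows in percent (x axis) for the 229 members, coloured by mean TPM on a log scale; dotted lines mark ratios of 0.05 and 0.2. Members without a unique window, at the left edge, range from near 0 to over 0.8, and those at 100% lie near 0.

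The members with a high ratio were copies whose reads were divided loosely. Rpl27-ps3, on chromosome 18, and Gm11518, on chromosome 11, have identical sequences and were given identical levels of 360 TPM in replicate 1 and 351 TPM in replicate 2, beside 271 and 258 TPM for Rpl27. In replicate 1 the posterior SDs of their counts of 2355 were 858 and 856 reads. The deposited credible interval of Rpl27-ps3 ran from 84.9 to 488 TPM in replicate 1, and that of Gm11518 from 204 to 609 TPM; the level of these intervals is not given in the sources used here.

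Other loosely divided members were lower. Gm6361, a copy of the ubiquitin-conjugating enzyme variant gene Ube2v2, had 99.4 and 104 TPM beside 112 and 129 TPM for the gene. Gm10146, a copy of the RNA-processing gene Lsm7, had 40.2 and 35.6 TPM, and Gm13392, of Bri3, 40.9 and 29.8 TPM. Gm14567, a copy of the RNA polymerase subunit gene Polr2k, had 24.7 and 32.5 TPM, and Gm9385, of Rpl24, a mean of 26.9 TPM.

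The rest of the 12 highest in this class were mostly very short. Gm47965 (Cop1) had 22.2 and 29.4 TPM, from 7.44 and 10.2 counts over 115 bases. Gm1943 (Wdr70) had 28.0 and 21.6 TPM, Gm3788 (Tmsb10) 23.0 and 24.1 TPM, and Gm47441 (Tecr) 24.7 and 16.3 TPM. Gm9493 (Rps7) had 20.3 and 14.9 TPM over 571 bases. All 5 were below their parents in both libraries, the least so Gm1943, whose parent stood at 49.7 and 54.9 TPM.

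The width of the credible intervals followed the same classes. The median ratio of upper to lower bound was 1.23 and 1.22 in members with a low SD ratio, 1.69 and 1.63 in between, and 3.94 and 4.33 in members with a high ratio. The lower bound was under 5 TPM in at least 1 library for 61 of the 229 members, 28 of them among the 40 with a high ratio. For 5 members, Gm10123 and Rps23-ps1 among them, the deposited TPM lay above the upper bound in both libraries; the interval of Gm10123 in replicate 1 ran from 3050 to 3160 TPM.

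Further pairs of members had the same sequence and the same level. Gm10171 and Gm10233, identical copies of the mitochondrial import gene Timm23, both had 11.8 and 8.98 TPM. Gm15801 and Gm8783, identical copies of the phosphatase gene Ptp4a1, both had 11.2 and 10.9 TPM. In all, 24 parents had more than 1 member, and Hmgb1, Rps7, Tmsb10 and Timm23 had 3 each, so members of the set share sequence and are not independent of each other.

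Members with unique sequence form a small and mostly low group. Of the 27 members with at least 90% unique windows, 22 had a mean under 20 TPM, and the median mean was 8.75 TPM. They included 7 of the transcribed type and 7 shorter than 200 bases. Median identity to the parent was 92.8% in the 22 that had one, with a range from 80.4% to 98.5%, and 6 of these 22 were above the parent in both libraries.

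Rps4l, named as ribosomal protein S4-like, was the highest of them at 168 and 176 TPM. It lies on chromosome 6 from 148354656 to 148355598, in an intron of Tmtc1 and on the other strand, and 98.3% of its windows were unique. Its counts of 2889 and 3062 had posterior SDs of 0.51 and 0.14 reads, and no coding parent passed the limits of alignment. Just below the 90% mark, 2810025M15Rik had 89.7% unique windows and stood at 86.2 and 87.2 TPM, opposite an exon of Rasal2.

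Magef1, a member of the melanoma antigen family of ubiquitin ligase regulators, had 22.8 and 23.5 TPM. Its 648 and 691 counts had a posterior SD of 0 in both libraries, and all its windows were unique. It lies on chromosome 16 from 21331902 to 21333356, outside other coding or long noncoding genes. The log2 ratio of replicate 2 to replicate 1 was -0.0052 for Rps4l and 0.0036 for Magef1, so both libraries gave nearly the same level.

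Copies with unique sequence and a known parent included members far below that parent. Gm7805 had 11.8 and 10.5 TPM beside 189 and 178 TPM for the mitochondrial ribosome gene Mrpl20. Gm17922, in an intron of Pcdh9 on the same strand, had 12.4 and 9.32 TPM beside 487 and 484 TPM for the nucleolar protein gene Npm1, with which it shared 85.9% identity.

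A group of 5 of the 27 had a zinc finger gene as parent. These genes encode DNA-binding proteins and form large clusters of similar copies. Gm10509 had 8.66 and 10.2 TPM (parent Zfp983), AC098880.2 7.57 and 8.70 TPM (Zfp988), and AC154486.3 5.39 and 5.76 TPM (Zfp946), all on chromosome 17. On chromosome 13, Gm3325 had 8.96 and 9.47 TPM and Gm7240 8.27 and 10.1 TPM, both with Zfp808 as the best match. The last 4 of these 5 have more than 1 exon in the annotation, unlike an intronless copy.

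Among very short members, few reads made up the level. Of the 229, 18 were shorter than 200 bases, and 7 had fewer than 10 estimated counts in at least 1 library. Gm49286, with 102 bases, reached 15.9 and 30.8 TPM from 1 and 2 counts, so that 1 read was worth 15.9 TPM in replicate 1, where the median over members was 0.129 TPM. Gm47385 reached 5.31 and 5.13 TPM from 3 counts in each library, and Gm21297 7.07 and 10.3 TPM from 4 and 6 counts.

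The 30 members of the transcribed type were set beside the 199 of the plain type. Their median levels were 33.0 and 40.3 TPM beside 24.2 and 24.5 TPM for the plain type. No unique window was found in 3 of the 30 (10.0%) and in 72 of the 199 (36.2%). That order was not seen over all processed pseudogenes. There, 18 of 296 of the transcribed type (6.08%) had none, beside 4.04% of both types together. A frame of at least 95% of the parent's length was present in 18 of 26 with a parent (69.2%) and in 78 of 196 (39.8%). Over all processed pseudogenes with a parent, it was present in 21.8% of the transcribed type and 8.47% of both types together.

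Beyond those already described, members among the 15 highest of the transcribed type covered several functions. Gm10275, of Rpl12, had 193 and 215 TPM, and Rpl10-ps1, of Rpl10, 164.65 and 164.64 TPM. Gm6472, of Rps7, had 129 and 125 TPM, and Rps26-ps1, of Rps26, 99.7 and 103 TPM. Gm5641, of the RNA-binding protein gene Hnrnpa3, had 45.5 and 51.0 TPM, Gm7666, of the prohibitin gene Phb, 44.1 and 47.0 TPM, and Ppp1ccb, of the phosphatase catalytic subunit gene Ppp1cc, 32.7 and 49.8 TPM.

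Grouped by the function of the parent, ribosomal proteins came first. They accounted for 57 members from 49 parents, 24.9% of the set beside 18.2% of all processed pseudogenes, and for 9562 and 9284 TPM. Of these 57, 17 had a low SD ratio and 21 no unique window. A family needs a parent, which 7 members (3.06%) but 2585 of all processed pseudogenes (25.3%) lacked. Each family's share of all is lowered by this. Among those with a parent, ribosomal copies were 57 of 222 members and 1867 of 7652 processed pseudogenes, which are similar shares. Chromatin proteins of the HMG and related families followed with 17 members and 2593 and 2471 TPM, 7.42% of the set beside 3.84% of all.

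Smaller families were also present, here with their share of the set beside their share of all processed pseudogenes. The latter share is again lowered by the 2585 without a parent. Mitochondrial energy genes gave 11 members (4.80% beside 2.32%), RNA-binding and splicing genes 10 (4.37% beside 2.29%), and ubiquitin and proteasome genes 10 (4.37% beside 1.57%). The cytoskeleton gave 8 members (3.49% beside 0.899%) and chaperones with cyclophilins 5 (2.18% beside 1.71%), of which Gm10123 held most of the 3342 and 3183 TPM. Among those with a parent, chaperones with cyclophilins were 5 of 222 members and 175 of 7652 processed pseudogenes, about the same share. Glycolysis gave 4 members (1.75% beside 2.83%) and translation factors 2 (0.873% beside 1.26%), and none of the 24 ferritin copies was a member. Other parents accounted for 98 members.

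In the genome, 137 members (59.8%) lay outside other coding or long noncoding genes, beside 71.8% of all processed pseudogenes. An intron on the other strand held 41 members (17.9% beside 14.9%) and an intron on the same strand 33 (14.4% beside 9.88%). Exons of other genes were overlapped on the other strand by 11 members (4.80% beside 2.47%) and on the same strand by 7 (3.06% beside 0.938%). These 7 were Gm10774, Gm7666, Gm49286, Ywhaq-ps3, Gm15421, Gm14057 and AC154486.3. No strand-specific step is named in the labels, so reads of a host or antisense gene cannot be told apart from those of these members.

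Differences between the libraries were small for most members. With counts scaled by the TMM method of edgeR, 17 of the 224 members with at least 10 counts in a library (7.59%) lay past 1.5-fold, 6 higher and 11 lower in replicate 2. Over all 20125 genes with that many counts the share was 11.2% (4.57% higher and 6.63% lower), and over the 11608 at 5 TPM in both libraries it was 0.896%. With 1 library on each side there is no replicate check of such a ratio, and no p-value is given.

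The number of reads moved with this share. Among 70 members with under 100 counts in a library, 13 (18.6%) were past 1.5-fold, beside 16.9% of the 207 genes at 5 TPM with as few counts. Among 154 members with 100 counts or more in both, 4 (2.60%) were past it, beside 0.605% of 11401 such genes. By SD ratio, 1 of 64 members with a low ratio was past 1.5-fold, 9 of 121 in between and 7 of 39 (17.9%) with a high ratio.

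The largest ratios belonged mostly to copies with loosely divided reads. Gm10163, of Rpl21, had 16.5 TPM in replicate 1 and 7.28 TPM in replicate 2, from 132 and 60.3 counts with posterior SDs of 42.7 and 20.2 reads. Gm14539, of Usmg5, had 12.1 and 5.10 TPM, and Gm15899, of the actin-related gene Actr3, 8.56 and 19.4 TPM. Rps15a-ps7 had 11.6 and 5.89 TPM, H3f3a-ps2 15.5 and 7.97 TPM, and Gm15452, of the cell cycle gene Cks2, 51.2 and 27.2 TPM.

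The remaining members among the 10 with the largest ratios were Gm4540, Gm30671, Gm6055 and Gm13378, whose levels are given above. Gm4540 was higher in replicate 2, with 48.4 and 98.4 counts, and Gm6055, of the autophagy gene Map1lc3b, was lower, at 9.56 and 5.57 TPM. Gm30671, of Rpl36, was the 1 member with a low SD ratio past 1.5-fold. It had 9.59 and 5.27 TPM from 44 and 25 counts, all in unique sequence.

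The same reads were also quantified by the authors against the older release M4, which allowed levels to be compared between annotations. Of the 229 members, 187 had a row in the M4 tables and 42 had none. Mean TPM differed over 2-fold between the releases for 27 of the 187 (14.4%), 10 higher and 17 lower in M4. The share was 3.06% (0.575% higher and 2.49% lower) over all 11649 genes with a mean of 5 TPM in M21, and 2.68% over protein-coding genes. By SD ratio, 1 of 46 with a low ratio, 20 of 107 in between and 6 of 34 with a high ratio differed that much.

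Some copies had no signal under M4. Gm6361, Gm10774 (Polr2l), Gm7336 (the glycolytic gene Gapdh) and Gm10233 (Timm23) were listed at 0 in both M4 tables, while in M21 they stood at means of 102, 75.6, 12.4 and 10.4 TPM. The copies of Snu13, a gene of a small RNA-binding protein, came close to this: Gm5616 had 61.8 and 62.0 TPM in M21 and 2.16 and 0 TPM in M4, and Gm8741 25.8 and 22.9 TPM in M21 and 0.41 and 0 TPM in M4. Gm19680, of the polyamine oxidase gene Paox, went from 7.20 and 6.16 TPM to 0.22 and 0.19 TPM.

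For the 26 members that differed over 2-fold and whose parent was in M4, the copy and the parent differed in opposite directions in 22. They differed in the same direction in 4. A parent's difference was counted at any size, as for Rpl37a, parent of Gm4149, with means of 1010 TPM in M21 and 1018 TPM in M4. Of the 16 copies lower in M4, 15 had a higher parent, but protein-coding genes were also slightly higher in M4 (median log2 0.07). Opposite directions alone therefore do not show signal moving between copy and parent. Oaz1-ps, a copy of the antizyme gene Oaz1, had 142 and 123 TPM in M21 and 11.5 and 7.69 TPM in M4, while Oaz1 had means of 1089 and 1279 TPM. Rps26-ps1 had 99.7 and 103 TPM in M21 and 7.15 and 8.08 TPM in M4, while Rps26 had means of 381 and 670 TPM.

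Among the 10 members higher in M4, the parent was lower in 7. Gm10221, a copy of the ATP synthase gene Atp5l named after its values were seen, had 217.42 and 216.85 TPM in M21 but 669 and 655 TPM in M4, while Atp5l had means of 477 and 124 TPM. Gm10163 had 16.5 and 7.28 TPM in M21 and 55.9 and 60.5 TPM in M4, while Rpl21 was also higher, with means of 327 and 365 TPM. Polr2l was lower in M4 together with its copy Gm10774, with means of 60.5 TPM in M21 and 31.4 TPM in M4.

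The summed TPM of pseudogene and parent was within 1.5-fold between the releases in 23 of the 26 pairs. The copy held a median of only 11.7% of its pair's TPM in M21, so a pair's sum mostly rested on the parent. The 3 sums outside 1.5-fold included those of copies with a large share: Gm10774 and Polr2l summed to 136 TPM in M21 and 31.4 TPM in M4, and Gm6361 and Ube2v2 to 222 and 125 TPM. The median log2 difference of the sums was 0.03, with a range from -2.11 to 0.49, beside a median of 0.07 for the level of protein-coding genes. None of the 9 unique-sequence members found in M4 differed over 2-fold, and their log2 differences ran from 0.01 to 0.38.

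**Figure D5:**
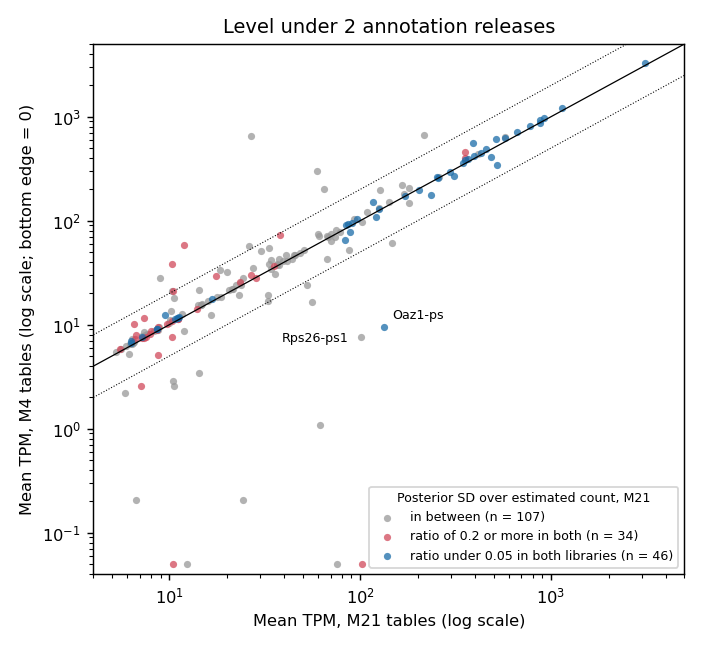
Mean TPM over 2 libraries in the M4 tables (y axis, log scale, genes at 0 placed at the bottom edge) against the M21 tables (x axis, log scale) for the 187 members found in both, coloured by the ratio of posterior SD to estimated count in M21; the solid line marks equality and the dotted lines 2-fold. Of the 27 members outside the dotted lines, 1 had a low ratio, Oaz1-ps.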

How the data were processed

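Polyadenylated RNA was measured in 2 libraries of 1 group. According to the deposited notes, the authors placed reads on assembly mm10 and quantified them against GENCODE M21 and M4; which aligner and quantifier they ran is not given in the sources used here. The deposited estimated count is the authors' number of reads per gene, with shared reads divided among genes, and its posterior SD is deposited beside it. The deposited TPM is scaled to 1 sum over the whole table, and the deposited FPKM was used only as an alternative. The deposited percent of a gene's TPM per transcript, from the authors' transcript tables, was read for members with several transcripts. Totals were 33529531 and 35461403 estimated counts.

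From these, members were selected at 5 TPM. Estimated counts were rounded and scaled by TMM in edgeR 4.0.16 (R 4.3.3), with a prior count of 2 and at least 10 counts in a library; DESeq2 1.42.0 size factors were an alternative. Parents were found by aligning the longest transcript of each pseudogene with BLAST+ 2.17.0 to GENCODE M21 coding transcripts. Unique windows were counted over all annotated transcripts; scaffold genes and unannotated sequence were not used here. Scripts were tested on simulated data. The members and lists were chosen with earlier results of these data known. Genes were named by rank (the 20 highest; the 15 highest transcribed; the 12 highest by low and by high SD; the 10 largest ratios between libraries and between releases; the 3 on each side of the threshold); members named for unique sequence, short length, genome position, RefSeq type or a level above the parent were chosen after their values were seen. Some genes that these rules name are not reported here.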

Additional observations from a re-analysis of the deposited data

How the results depend on the processing

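The number of members depended on the threshold, with 607 at 1 TPM, 385 at 2 TPM and 152 at 10 TPM in both libraries. It was 252 and 265 with 1 library alone, 168 by the lower bound of the credible interval, 175 by FPKM and 222 with at least 10 counts in both libraries. The share with a low SD ratio was 6.99% at an SD of exactly 0, 51.5% under 0.1 and 78.6% under 0.2, and 27.8% to 29.8% when either replicate was left out. The count past 1.5-fold between libraries was 17 to 23 under DESeq2 size factors, spike-in scaling, TPM ratios, log2(TPM + 1), no count filter, a prior count of 0.5 and the M4 tables. At 1.5-fold in place of 2-fold, 44 members differed between M4 and M21. The symbol before -ps or -rs was that of a coding gene in 44 of the 46 members so named. The median share of unique windows was 4.27% with 25 bases, 16.02% with 75 bases and 20.3% with 100 bases, the last chosen after seeing the data. No paired analysis was possible because there was 1 group of 2 libraries. Depth limited short members, and 75 had under 100 counts in a library.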

Other observations

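A set chosen by sequence alone gave another view of the same pseudogenes, and was drawn up after values were seen. Of all processed pseudogenes, 7859 had at least 90% unique 100-base windows. Of these 7859, 5662 (72.0%) were at 0 TPM in both libraries, 182 reached 1 TPM in both and 27 (0.344%) reached 5 TPM in both. Of the 412 processed pseudogenes without any unique window, 75 (18.2%) reached 5 TPM in both.

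Retrocopies that the annotation calls protein coding differed widely: 5 of the 12 examined reached 5 TPM in both libraries and 4 were listed at 0 in both. Of all 22028 protein-coding genes, 10901 reached 5 TPM in both libraries. Rbmxl1, a copy of an X-linked RNA-binding protein gene, stood at 214 and 221 TPM, and Cstf2t, a copy of a gene for messenger RNA 3' end processing, at 59.4 and 62.3 TPM. Nap1l5 had 52.5 and 57.3 TPM, Chmp1b 44.0 and 47.9 TPM, and Mcts2 33.5 and 37.6 TPM. Zrsr1 had 3.58 and 4.96 TPM, Utp14b 2.71 and 2.13 TPM, and G6pd2 0.04 and 0.02 TPM. Pgk2, Pdha2, Rpl10l and Rbmxl2 were listed at 0 in both libraries, where 3 counts on 1 kb of effective length would be 0.143 and 0.138 TPM.

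Members were spread over all autosomes and the X chromosome. Chromosome 2 held 27 of the 229, from 590 processed pseudogenes, and the X chromosome 12, from 949. Of all 10237 processed pseudogenes, 229 were members. Chromosomes 13 (6 from 566) and 11 (5 from 421) held smaller shares than the X chromosome.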
